A study of Homo sapiens with 16 samples.

Results

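INHBE, activins, follistatins and the receptors they act through were read as 10 genes in the human glioblastoma line U-251 MG, which is an established cell line: INHBE, INHBA, INHBB and GDF11 encode ligands, FST and FSTL3 encode secreted proteins that bind ligands, and ACVR1, ACVR1B, ACVR2A and ACVR2B encode receptors. They were taken by symbol from a table of 58243 genes, and all 10 were among the 16647 genes that passed the filter on low counts. INHBE was taken as chosen by its own levels in these libraries, which were higher with simvastatin and with the combination than with DMSO. Its values are therefore given as a description with no test. The other 9 were taken as its family and partners, and they too were chosen with earlier results of these data known. Whether their own values took part in that choice is not stated.

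Cells were treated from 24 h after seeding, for 48 h, with DMSO (the vehicle), with simvastatin at 0.06 µM, with irinotecan at 0.6 µM, or with both drugs at those doses, called the combination. Simvastatin is a statin, which blocks the enzyme that makes mevalonate for cholesterol synthesis, and irinotecan is a prodrug of an inhibitor of topoisomerase I. Poly(A) RNA was sequenced from 4 libraries per group, and the series was made to find pathways and genes affected by the drugs alone and together. All groups are the same cell line at 1 dose of each drug and 1 time, and the labels do not name separate cultures for the libraries within a group. The p-values may therefore measure technical spread only. A level in such RNA cannot tell more cells that express a gene from more RNA per cell.

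Activins are dimers of inhibin beta subunits and belong to the TGF-β family. They bring together a type II receptor (ACVR2A or ACVR2B) and a type I receptor such as ACVR1B, which phosphorylates SMAD2 and SMAD3, while follistatin and FSTL3 hold activins and GDF11 away from the receptors. INHBE encodes the beta subunit of activin E, best known as a secreted product of liver whose mRNA also rises in cells under endoplasmic reticulum stress.

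Levels are given as CPM, each gene's count relative to its library's total, scaled by TMM factors, which correct those totals for composition. Total counts were 24159673 to 32318888 per library, of which 2.37% to 4.58% fell on mitochondrial genes. Markers of cell types were taken as low where their mean over the 16 libraries was under 1 CPM. All 8 markers of glioblastoma and astroglia were over it, with summed levels of 7328 to 7560 CPM in DMSO libraries and 7110 to 7214 CPM in simvastatin libraries. In irinotecan libraries the sum was 5744 to 5890 CPM, and in those given both drugs it was 5609 to 5779 CPM. The 6 hepatocyte markers, among them ALB and APOA1, were all low by that mean and summed to at most 1.47 CPM in any library. SERPINA1, the only one of them tested, was over 1 CPM in at least 1 irinotecan library and was called higher with irinotecan (1.34 ± 0.29 on the log2 scale) and with the combination (1.31 ± 0.30). Of 4 epithelial markers, EPCAM and CDH1 were low, and the sum, held by KRT8 and KRT18, was 396 to 445 CPM in DMSO libraries and 354 to 386 CPM in simvastatin libraries. It was 574 to 633 CPM in irinotecan libraries and 497 to 570.3 CPM in those given both drugs. Of 4 endothelial markers PECAM1, VWF and CDH5 were low by that mean, and the sum was at most 4.26 CPM in any DMSO or simvastatin library and at least 5.41 CPM in any library with irinotecan. VWF stood at 0.50 ± 0.16 CPM with DMSO and 1.24 ± 0.17 CPM with the combination (SD, n = 4), where all 4 libraries were over 1 CPM, and it was called higher with irinotecan (0.87 ± 0.29) and with the combination (1.29 ± 0.28), as was KDR (0.34 ± 0.11 and 0.46 ± 0.11). Of 4 macrophage and leukocyte markers PTPRC, CD68 and AIF1 were low, with a sum of at most 2.19 CPM in any library. Of 5 granulosa cell markers FSHR and CYP19A1 were low, and the sum was 13.9 to 27.4 CPM over all libraries, most of it from AMH, with group means of 12.4 to 17.8 CPM. The part of these shifts in the results below was not tested.

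RefSeq promoters on GRCh38.p14, from 250 bases before to 50 bases after the start, were at hand for 9 of the 10 genes, all but INHBE. Those of GDF11, FST and FSTL3 are shown because these 3 genes rose both with irinotecan and with the combination. Capitals mark the GC box (GGGCGG), the TATA box (TATAAA) and the CCAAT box (CCAAT), each searched on both strands. The windows are chr12:55742872-55743171 on the plus strand for GDF11, chr5:53480379-53480678 on the plus strand for FST and chr19:676142-676441 on the plus strand for FSTL3.
GDF11: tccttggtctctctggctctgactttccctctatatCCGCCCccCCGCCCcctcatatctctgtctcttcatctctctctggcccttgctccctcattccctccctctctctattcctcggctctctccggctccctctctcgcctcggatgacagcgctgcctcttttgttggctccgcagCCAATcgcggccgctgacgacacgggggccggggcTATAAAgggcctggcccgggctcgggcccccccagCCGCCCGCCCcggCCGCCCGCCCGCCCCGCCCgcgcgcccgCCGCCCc
FST: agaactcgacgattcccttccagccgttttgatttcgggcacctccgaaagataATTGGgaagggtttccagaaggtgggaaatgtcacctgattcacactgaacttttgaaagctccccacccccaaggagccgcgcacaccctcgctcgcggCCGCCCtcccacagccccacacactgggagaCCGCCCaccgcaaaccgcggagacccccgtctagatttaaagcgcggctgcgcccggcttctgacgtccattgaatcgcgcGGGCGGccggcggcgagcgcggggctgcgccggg
FSTL3: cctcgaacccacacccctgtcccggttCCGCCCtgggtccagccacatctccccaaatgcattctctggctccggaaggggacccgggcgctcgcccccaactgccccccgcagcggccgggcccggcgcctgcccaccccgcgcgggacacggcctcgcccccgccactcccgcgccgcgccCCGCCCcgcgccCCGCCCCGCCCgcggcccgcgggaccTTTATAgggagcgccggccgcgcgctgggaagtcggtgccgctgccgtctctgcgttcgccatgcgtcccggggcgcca

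The GDF11 window held 9 GC boxes, a TATA box 33 bases before the start and 1 CCAAT box. The FSTL3 window held 4 GC boxes and a TATA box, on the other strand, 29 bases before the start. FST had 3 GC boxes and 1 CCAAT box on the other strand and no TATA box. These letters are common: of 35116 promoters of that length 45.0% held a GC box, 34.6% a CCAAT box and 11.5% a TATA box. Some GC boxes of GDF11 and of FSTL3 overlap each other. Among elements named for stress and SMAD signalling, TGATGNAA (the C/EBP-ATF response element, in 3.62% of all promoters), GTCTAGAC (a SMAD box, 0.202%), TGACGTCA (the cAMP response element, 1.85%) and the ER stress element (0.0769%) had 0 matches in the 12 windows of the 9 genes. The absence says only that these letters are not in these windows.

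INHBE was low with DMSO, intermediate with irinotecan and high with simvastatin and with the combination (ENSG00000139269, GRCh38 chromosome 12, 57452323 to 57459280). With DMSO the 4 libraries, replicates 1 to 4, gave 1.55, 1.49, 1.11 and 1.65 CPM, which are 28 to 51 counts. With irinotecan they gave 2.97, 3.11, 2.85 and 2.91 CPM, all above every DMSO library. With simvastatin the values were 9.24, 8.91, 8.02 and 12.5 CPM, and with the combination 10.2, 8.55, 8.04 and 11.4 CPM. The ranges of simvastatin and the combination overlapped, and both lay above every library of the other groups. Means were 1.45 ± 0.24 CPM with DMSO, 2.96 ± 0.11 with irinotecan, 9.57 ± 1.56 with the combination and 9.66 ± 1.94 with simvastatin (SD, n = 4).

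On the log2 scale, with standard errors, INHBE differed from DMSO by 2.72 ± 0.15 with simvastatin, by 1.02 ± 0.18 with irinotecan and by 2.71 ± 0.15 with the combination. The combination stood 1.69 ± 0.14 above irinotecan and -0.01 ± 0.12 from simvastatin. Against the 2 single-drug differences added together, INHBE with both drugs departed by -1.03 ± 0.22, so the level with both drugs lay under that sum. Over 24 other analyses (23 for the departure) these values ran from 2.58 to 2.80 for simvastatin, from 0.92 to 1.11 for irinotecan, from 2.60 to 2.78 for the combination and from -1.13 to -0.89 for the departure. Adding irinotecan to simvastatin left INHBE in the same range of levels.

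The nearest protein-coding genes on either side of INHBE were at or near the floor. INHBC, another activin subunit gene of the liver, ends 1494 bases before INHBE on the same strand and had at most 4 counts in any library. GLI1, a transcription factor of hedgehog signalling, begins 854 bases after INHBE on the same strand and had means of 0.84 CPM with DMSO, 0.93 with simvastatin, 0.89 with irinotecan and 0.81 with both drugs, with overlapping libraries and no call in the 6 comparisons.

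**Figure D1:**
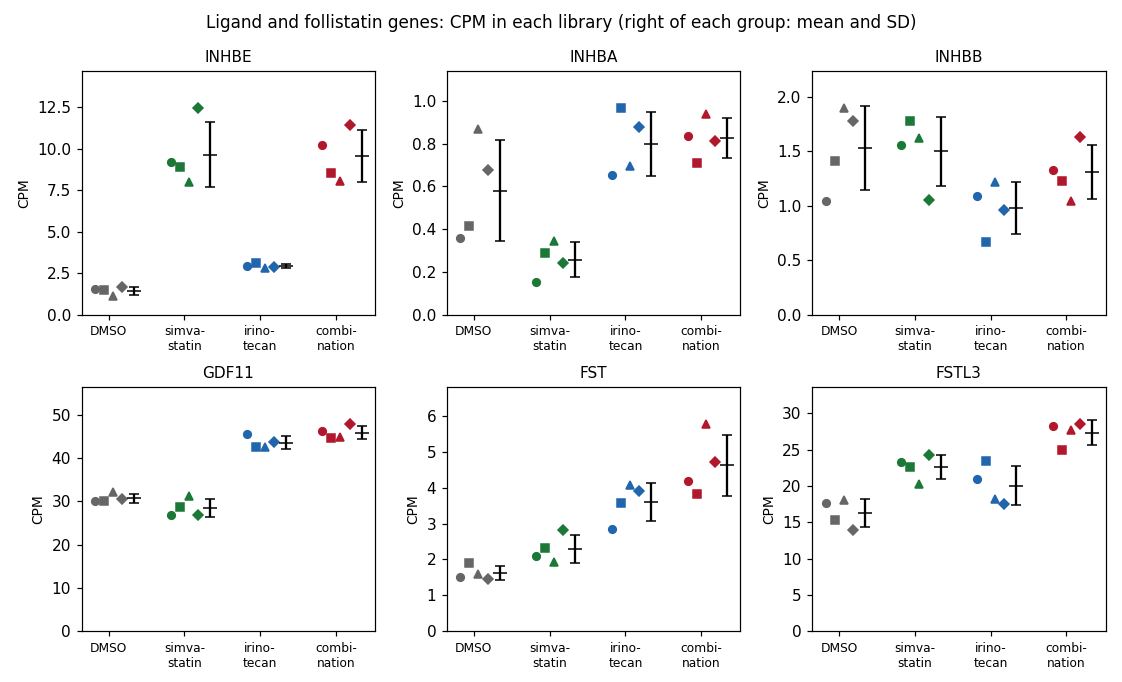
CPM in each library for the ligand genes INHBE, INHBA, INHBB and GDF11 and the follistatin genes FST and FSTL3, by group, with circles, squares, triangles and diamonds for replicates 1 to 4 and a black bar for mean and SD. INHBE stood at 8.02 to 12.5 CPM with simvastatin against 1.11 to 1.65 CPM with DMSO, and GDF11 was higher in both groups with irinotecan.

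INHBA, the subunit of activin A, was hardly measured, with a mean of 0.61 CPM over the 16 libraries (ENSG00000122641, chromosome 7, 41667168 to 41705834). Its values were 0.36, 0.41, 0.87 and 0.68 CPM with DMSO and 0.15, 0.29, 0.34 and 0.24 CPM with simvastatin, which are 10 to 22 against 4 to 10 counts. The simvastatin libraries were all under the DMSO libraries. With irinotecan they were 0.65, 0.97, 0.69 and 0.88 CPM and with the combination 0.84, 0.71, 0.94 and 0.81 CPM. Both of these groups overlapped DMSO and lay wholly above simvastatin.

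INHBA thus fell with simvastatin by 1.16 ± 0.36 on the log2 scale, where INHBE was high, at an edgeR adjusted p = 0.05 that only just met the threshold (0.049984 before rounding). The call was lost in 17 of the 22 other analyses that gave a p (DESeq2 gave none), among them those without DMSO replicate 3 (adjusted p = 0.191), DMSO replicate 4 (0.137) or simvastatin replicate 1 (0.174), 2 (0.0804) or 4 (0.122), and without any single irinotecan or combination library (0.0544 to 0.0600). The combination was above simvastatin alone by 1.66 ± 0.34 (edgeR adjusted p = 0.000434), and this call held in all 24 other analyses. The antisense gene INHBA-AS1 overlaps INHBA and had at most 2 counts in any library.

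INHBB, the subunit of activin B, was at 1.04, 1.41, 1.89 and 1.78 CPM with DMSO, 1.55, 1.77, 1.62 and 1.05 with simvastatin, 1.09, 0.66, 1.22 and 0.96 with irinotecan and 1.33, 1.22, 1.05 and 1.63 with both drugs (ENSG00000163083, chromosome 2, 120346143 to 120351808). All groups overlapped. With irinotecan it fell by 0.65 ± 0.23 on the log2 scale (edgeR adjusted p = 0.0399). The call was lost when DMSO replicate 3 (adjusted p = 0.13), DMSO replicate 4 (0.127), irinotecan replicate 2 (0.157) or irinotecan replicate 4 (0.0664) was left out. It was also lost with library totals in place of TMM factors (0.0642), with no filter on low counts (0.0587), with only the compared groups (0.0589) and in the 12 numbered libraries (0.165). With the combination the difference from DMSO was -0.23, with a 95% interval of -0.70 to 0.23, and it was not called.

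GDF11, a ligand related to myostatin that uses the activin type II receptors, was the most abundant ligand gene in CPM and rose with irinotecan (ENSG00000135414, chromosome 12, 55743280 to 55757278). It was at 30.0, 30.0, 32.1 and 30.6 CPM with DMSO and at 26.7, 28.8, 31.1 and 26.8 CPM with simvastatin. It was at 45.5, 42.5, 42.6 and 43.7 CPM with irinotecan and at 46.2, 44.6, 44.9 and 47.8 CPM with the combination. The 8 libraries with irinotecan all lay above the 8 without it. The rise was 0.51 ± 0.05 with irinotecan and 0.58 ± 0.05 with the combination on the log2 scale (edgeR adjusted p = 5.39e-09 and 3.34e-10). Simvastatin alone gave -0.11 ± 0.05 (adjusted p = 0.256), and the combination against irinotecan gave 0.07, with a 95% interval of -0.03 to 0.18.

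FST, which encodes follistatin, the classic antagonist of activin, was lowest with DMSO and highest with the combination (ENSG00000134363, chromosome 5, 53480409 to 53487134). It was at 1.51, 1.91, 1.58 and 1.45 CPM with DMSO and at 2.08, 2.31, 1.93 and 2.82 CPM with simvastatin. With irinotecan it was at 2.86, 3.57, 4.06 and 3.90 CPM, and with the combination at 4.18, 3.82, 5.77 and 4.72 CPM. DMSO, simvastatin and irinotecan did not overlap one another, while irinotecan and the combination did. FST rose by 1.16 ± 0.17 with irinotecan and by 1.53 ± 0.16 with the combination, a fold of 2.24 and 2.89 (edgeR adjusted p = 2.64e-06 and 1.37e-08). The difference with simvastatin alone, 0.50 ± 0.18, was not called (adjusted p = 0.101), although its libraries lay above those of DMSO, and neither was that of the combination against irinotecan (0.37 ± 0.14, adjusted p = 0.143).

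FSTL3, a follistatin-like protein that also binds activins, rose in all 5 comparisons between groups (ENSG00000070404, chromosome 19, 676365 to 683399). It was at 17.6, 15.3, 18.1 and 14.0 CPM with DMSO and at 23.2, 22.7, 20.3 and 24.3 CPM with simvastatin. It was at 21.0, 23.5, 18.2 and 17.5 CPM with irinotecan and at 28.3, 24.9, 27.7 and 28.5 CPM with the combination. Irinotecan overlapped DMSO, and the combination lay above all other libraries. On the log2 scale it rose by 0.48 ± 0.09 with simvastatin, by 0.31 ± 0.09 with irinotecan and by 0.75 ± 0.09 with the combination (edgeR adjusted p = 0.000941, 0.0116 and 3.17e-07). It was also higher with the combination than with irinotecan (0.44 ± 0.09, adjusted p = 0.00143) and than with simvastatin (0.28 ± 0.09, adjusted p = 0.0182). The irinotecan call was lost without DMSO replicate 4 (adjusted p = 0.0562) or irinotecan replicate 2 (0.0644), and the last one without simvastatin replicate 3 (0.0626), combination replicate 1 (0.0528) or combination replicate 4 (0.0514).

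The type I receptors moved little. ACVR1, which passes on signals of bone morphogenetic proteins and also binds activins, was at 59.2, 63.8, 66.0 and 63.1 CPM with DMSO and at 53.7, 54.3, 59.2 and 58.9 CPM with irinotecan (ENSG00000115170, chromosome 2, 157736444 to 157875862). It was at 55.3 to 67.4 CPM with simvastatin and at 56.5 to 61.3 CPM with the combination, so that all groups overlapped. With irinotecan it fell by 0.16 ± 0.05 (edgeR adjusted p = 0.0288), and this call was lost without DMSO replicate 2 (adjusted p = 0.0599), 3 (0.0982) or 4 (0.0574) or irinotecan replicate 1 (0.0927) or 2 (0.0818). With library totals in place of TMM factors the difference was -0.08 (adjusted p = 0.267).

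ACVR1B, the main type I receptor for activin, was at 22.2, 20.6, 22.0 and 20.9 CPM with DMSO, at 19.9, 19.4, 23.4 and 19.8 CPM with simvastatin, at 23.2, 23.0, 23.2 and 23.3 CPM with irinotecan and at 24.3, 25.3, 25.5 and 23.7 CPM with the combination (ENSG00000135503, chromosome 12, 51951667 to 51997078). The combination lay above all other libraries. It rose by 0.21 ± 0.06 against DMSO and by 0.26 ± 0.06 against simvastatin (edgeR adjusted p = 0.00896 and 0.00169). With irinotecan alone the libraries also lay above DMSO, but the difference of 0.11 ± 0.06 was not called (adjusted p = 0.174; 0.0144 with library totals in place of TMM factors).

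Of the type II receptors, ACVR2B fell with irinotecan and ACVR2A was not called. ACVR2B was at 11.0, 10.6, 13.2 and 10.7 CPM with DMSO, at 10.4, 9.86, 8.88 and 10.8 with simvastatin, at 8.25, 8.58, 9.93 and 8.05 with irinotecan and at 8.67, 8.67, 9.09 and 7.33 with the combination (ENSG00000114739, chromosome 3, 38453851 to 38493142). The irinotecan and combination libraries all lay under the DMSO libraries. It fell by 0.38 ± 0.09 with irinotecan and by 0.42 ± 0.09 with the combination (edgeR adjusted p = 0.0023 and 0.000778), and both calls held in all 24 other analyses.

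ACVR2A, the other type II receptor, was at 23.0, 28.0, 25.1 and 26.1 CPM with DMSO and at 22.9 to 25.3 CPM with simvastatin (ENSG00000121989, chromosome 2, 147844517 to 147930826). Irinotecan libraries were at 24.5 to 26.7 CPM and those given both drugs at 25.4 to 28.0 CPM. It was not called in any of the 6 comparisons, although the combination libraries all lay above those of simvastatin (0.13 ± 0.06, edgeR adjusted p = 0.125; 0.0246 with library totals in place of TMM factors). Against DMSO the 95% interval of its log2 fold change was -0.20 to 0.04 for simvastatin, -0.10 to 0.14 for irinotecan and -0.07 to 0.17 for both drugs. Whether ACVR2A and ACVR2B differ in their response was not tested. The 3' end of ACVR2A overlaps ORC4 on the opposite strand by 430 bases, with ORC4 at 40.9 to 48.3 CPM by library totals alone, and the counting is not stated to use strand. ACVR2B-AS1, which overlaps ACVR2B, had at most 0.507 CPM.

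**Figure D2:**
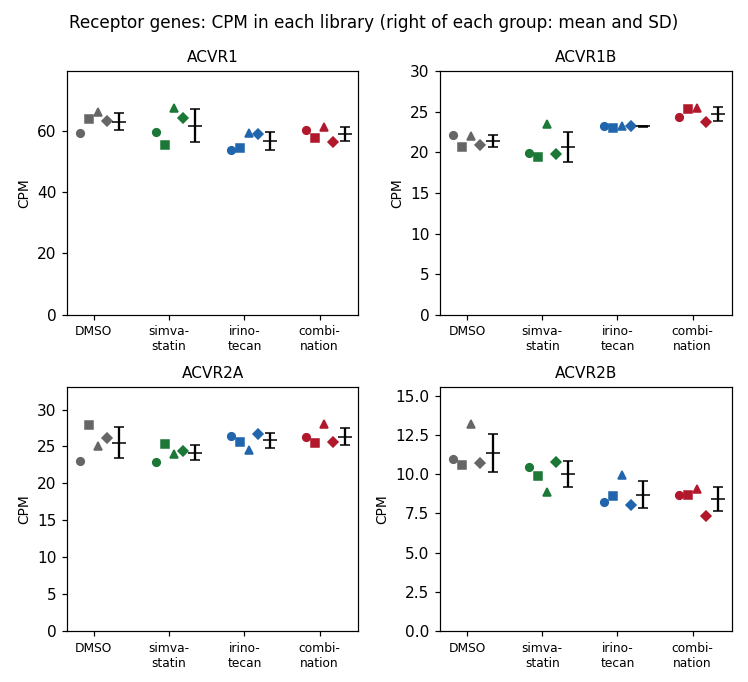
CPM in each library for ACVR1, ACVR1B, ACVR2A and ACVR2B, by group, with circles, squares, triangles and diamonds for replicates 1 to 4 and a black bar for mean and SD. ACVR2B was lower in both groups with irinotecan, and ACVR1B was at 23.7 to 25.5 CPM with the combination against 20.6 to 22.2 CPM with DMSO.

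Counted over the 9 genes besides INHBE, simvastatin changed 2 (FSTL3 higher, INHBA lower), where edgeR called 6.00% of all genes tested at an adjusted p under 0.05. Irinotecan changed 6, with FST, FSTL3 and GDF11 higher and INHBB, ACVR1 and ACVR2B lower, beside 24.1% of all genes. The combination changed 5 against DMSO (FST, FSTL3, GDF11 and ACVR1B higher, ACVR2B lower), beside 28.1%. Against irinotecan it changed 1, FSTL3, beside 5.94%. Against simvastatin it changed 5, all higher (INHBA, GDF11, FST, FSTL3 and ACVR1B), beside 25.6%. These comparisons share groups and are not independent. Without DMSO replicate 4 or irinotecan replicate 2 the irinotecan count was 3 in place of 6, and the simvastatin count was 1 wherever the INHBA call was lost.

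The interaction, which asks whether both drugs together give more or less than their separate changes added up, called 0 of the 9 genes, beside 0.0120% of all genes. INHBA (1.20 ± 0.45) and GDF11 (0.19 ± 0.07) had an unadjusted edgeR p under 0.05, 2 of the 9 genes. Over all 16647 genes tested, 1000 had an unadjusted p under 0.05. DESeq2 called 0 of the 9 genes. The median log2 fold change of the 9 genes from DMSO was -0.05 for simvastatin, 0.11 for irinotecan and 0.21 for both drugs, against medians of -0.01, 0.00 and 0.00 over all genes.

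**Figure D3:**
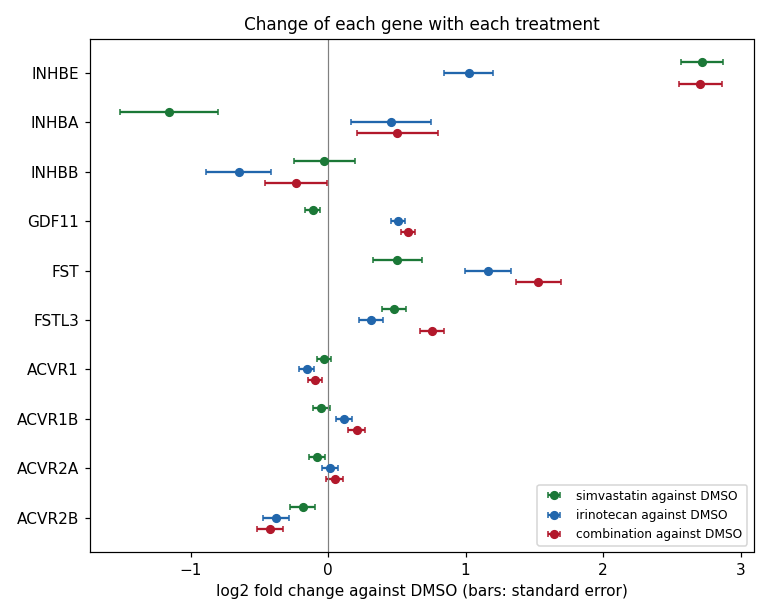
Log2 fold change against DMSO of the 10 genes with simvastatin, irinotecan and the combination, as points with standard errors from the edgeR fit. INHBE lies farthest to the right with simvastatin and the combination, and FST lies farthest with irinotecan, at 1.16 against 1.02 for INHBE.

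Levels of different genes were compared per kilobase of exon. With DMSO, ACVR1 was highest at 15.8 ± 0.7 CPM per kb, followed by FSTL3 at 5.30 ± 0.64. ACVR2A (3.77 ± 0.30), ACVR1B (3.76 ± 0.14) and GDF11 (3.55 ± 0.12) came next and lay within their spread of each other. ACVR2B (0.72 ± 0.08), FST (0.54 ± 0.07), INHBE (0.48 ± 0.08) and INHBB (0.48 ± 0.12) were low, and INHBA was last at 0.07 ± 0.03 CPM per kb (SD, n = 4).

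With simvastatin INHBE reached 3.20 ± 0.64 CPM per kb, within its spread of GDF11 at 3.27 ± 0.24. With the combination it was at 3.17 ± 0.52 CPM per kb, under GDF11 at 5.30 ± 0.17. FSTL3 stayed above INHBE per length in every group, at 7.38 ± 0.55 CPM per kb with simvastatin and 8.92 ± 0.55 with the combination. FST stood at 1.56 ± 0.29 CPM per kb with the combination. In all 4 groups ACVR1 was at rank 1 and FSTL3 at rank 2 of the 10 genes. This held with the length of the longest coding transcript. Under that length GDF11 and INHBE traded ranks 5 and 6 in the simvastatin group. ACVR1B traded ranks 3 and 4 with ACVR2A in the DMSO group, and with GDF11 in the irinotecan and combination groups.

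**Figure D4:**
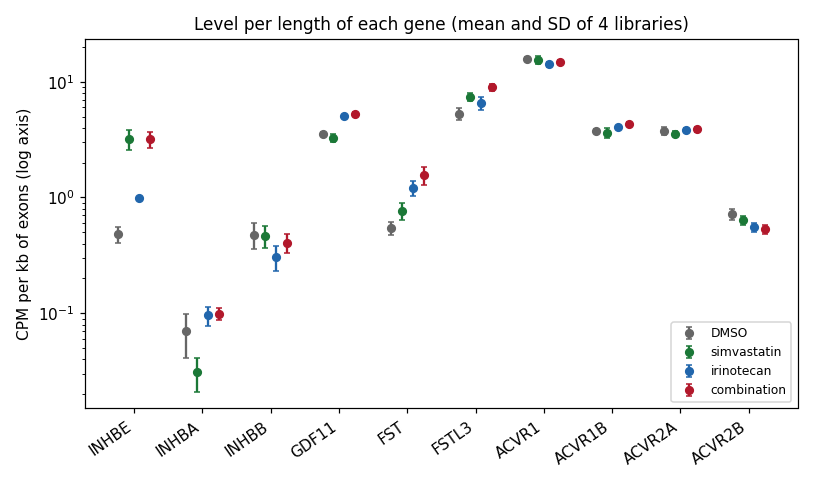
Mean level of each of the 10 genes in CPM per kb of exons on a log axis, with SD of 4 libraries, by group. INHBE moves from 0.48 with DMSO to 3.20 with simvastatin, and INHBA is the lowest gene in every group.

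Other genes of the activin pathway, listed by their role, were mostly low or little changed. Of 7 other ligand genes only INHA and 1 more, GDF9, were tested, and INHA, the alpha subunit that turns activins into inhibins, was lower with the combination than with simvastatin (-1.21 ± 0.34, edgeR adjusted p = 0.00928) with overlapping libraries. Of 9 other receptors and co-receptors 6 were tested, and 3 were called with irinotecan, 3 with the combination and 1 with simvastatin, where 24.1%, 28.1% and 6.00% of all genes were. With irinotecan the co-receptor gene TGFBR3 (0.44 ± 0.14, betaglycan) and IGSF1 (0.50 ± 0.11) rose and BMPR1B fell (-0.23 ± 0.06), and IGSF1 was the only one called with simvastatin (-0.42 ± 0.12). Of 7 further extracellular binders 3 were tested and none was called against DMSO (edgeR adjusted p at or over 0.05). Of the 4 convertase genes that process such precursors, FURIN among them, 0 were called in any comparison. Against DMSO 6.00% to 28.1% of all genes were called, so 0 of 3 or 0 of 4 says little about these lists.

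Among 12 intracellular transducers and brakes, 11 were tested. With simvastatin 0 were called, with irinotecan 3 and with the combination 4, beside 6.00%, 24.1% and 28.1% of all genes. With irinotecan PMEPA1, a brake on SMAD signalling, fell by 0.70 ± 0.03 on the log2 scale (edgeR adjusted p = 2.83e-16), and SMAD3 (0.13 ± 0.04) and FKBP1A (0.16 ± 0.04), which holds type I receptors inactive, rose. With the combination PMEPA1 fell by 0.59 ± 0.03 and SMAD2 by 0.13 ± 0.05, and FKBP1A rose by 0.23 ± 0.04. SMAD7, an inhibitory SMAD that was itself low, rose from 0.44 ± 0.21 to 1.13 ± 0.04 CPM (SD, n = 4, edgeR adjusted p = 0.000989). The median log2 fold change of the 11 genes against DMSO was 0.03 for simvastatin, 0.01 for irinotecan and 0.04 for both drugs.

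The list of 13 stress genes was set beside INHBE because INHBE mRNA is known to rise under stress. With simvastatin 11 rose and 0 fell (median 0.45), where 6.00% of all genes were called. With the combination 8 rose and 0 fell (median 0.28), where 28.1% were. The other 5 were not called, ATF4 (-0.01 ± 0.04) and DDIT4 (-0.02 ± 0.06) among them. Against simvastatin the combination had 1 higher and 6 lower (median -0.05), where 25.6% were called and INHBE differed by -0.01 ± 0.12. With irinotecan, where INHBE was 1.02 above DMSO, 3 rose and 4 fell (median -0.06), where 24.1% of all genes were called. Those that rose were SESN2 (0.53 ± 0.06), a brake on mTORC1, TRIB3 (0.39 ± 0.09), a pseudokinase, and DDIT3 (0.35 ± 0.10), the transcription factor CHOP. Those that fell were the chaperone gene HSPA5 (-0.27 ± 0.04), the stress transcription factor ATF4 (-0.23 ± 0.04), DDIT4 (-0.33 ± 0.06), another brake on mTORC1, and XBP1 (-0.12 ± 0.05), a factor of the unfolded protein response. DDIT4 was also the only one of the 13 called in the interaction (-0.44 ± 0.08, edgeR adjusted p = 0.037). That call was lost at an adjusted p under 0.01, where the interaction called 0 of all genes tested. It was also lost without DMSO replicate 2 or 4, simvastatin replicate 1, irinotecan replicate 1 or 4 or any 1 combination library.

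The genes whose levels were most like those of INHBE over the 16 libraries, of 12836 genes ranked, were CXCL8, MTHFD2, GOSR2, BLZF1, ASS1 and WARS, with Pearson correlations of log2 CPM of 0.98, 0.98, 0.96, 0.96, 0.96 and 0.96. CXCL8 encodes a chemokine, MTHFD2 a mitochondrial folate enzyme, ASS1 an enzyme of arginine synthesis, WARS the tryptophanyl-tRNA synthetase, and GOSR2 and BLZF1 proteins of the Golgi. MTHFD2 stood at 133 ± 5.6 CPM with DMSO, 196 ± 6.0 with simvastatin, 159 ± 3.5 with irinotecan and 205 ± 4.5 with both drugs, and ASS1 at 31.6 ± 2.4, 56.8 ± 5.9, 36.6 ± 3.0 and 52.3 ± 2.4 CPM in that order (SD, n = 4). CXCL8 stood at 1.05 ± 0.31, 34.2 ± 8.1, 4.46 ± 0.85 and 26.0 ± 1.9 CPM in the same order. In all 6 genes, as in INHBE, the mean was lowest with DMSO and next lowest with irinotecan. The libraries fall into 4 treatment groups, so such a correlation reflects group means and is a description. By Spearman rank correlation 2 of the 6, ASS1 and WARS, were again among the top 6, and the others were ARHGEF2, TRIB3, SQSTM1 and CARS.

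**Figure D5:**
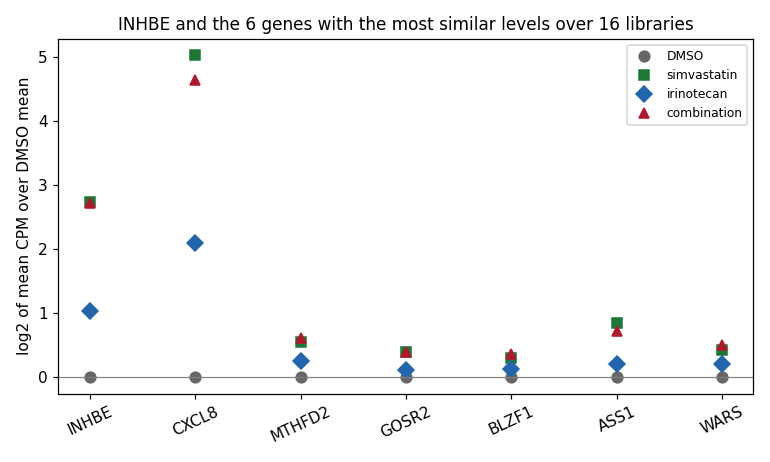
Log2 of the group mean in CPM over the DMSO mean for INHBE and the 6 genes with the highest Pearson correlation to it over 16 libraries. In INHBE and in the other 6 genes simvastatin and the combination lie above irinotecan, and irinotecan lies above DMSO.

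Within the family, FSTL3 was most like INHBE (Pearson r = 0.84) and FST next (0.54). The correlation was negative for ACVR2B (-0.48), INHBA (-0.27), ACVR1 (-0.15) and ACVR2A (-0.12). These values are again a description over 16 libraries that share groups. For INHBA, at its low counts, the nearest genes were OSBPL6 (0.93), a lipid-binding protein gene, RRM1 (0.92), a subunit of ribonucleotide reductase, TMEM108 (0.91), the helicase gene DHX8 (0.90), the kinase gene CAMKK2 (0.90) and ATP6V1A (0.89), a subunit of the vacuolar proton pump. Of these only DHX8 was in the top 6 by Spearman correlation.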

How the data were processed

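The authors deposited counts per gene, whole numbers that were not normalised, for 16 poly(A) libraries of U-251 MG. Per the submitters' processing notes, FastQC, STAR 2.7.1 and DESeq2 were used with GRCh38. For the counting tool, its annotation and its use of strand, the sources used here give nothing. Coordinates, exon lengths and overlaps came from GENCODE 29 on GRCh38, promoters from RefSeq.

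Libraries were grouped by title. The library without a number in each group was called replicate 4. With edgeR 4.0.16 in R 4.3.3, genes were kept by filterByExpr (minimum count 10, minimum total 15), scaled by TMM, and tested by two-sided quasi-likelihood F tests in 1 fit of 16 libraries with 6 contrasts. A call needed a p under 0.05 after Benjamini-Hochberg adjustment across the 16647 genes kept. Standard errors come from the change and its F statistic, and 95% intervals from those. Members, lists and named genes (every member, up to 4 called genes per list and comparison, and the 6 genes most like INHBE and INHBA by Pearson r of log2 CPM with prior count 2 and a mean of at least 1 CPM) were chosen with earlier results of these data known. Protein sequences were not used here. The fit was tested on simulated data. Alternatives were DESeq2 1.42.0, other scalings, no filter, a stricter threshold, fewer libraries and a replicate block. Lengths by longest transcript and 3 core promoter motifs were added after the data were seen. Figures used Python 3.11.15 with matplotlib 3.10.9.

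Libraries of a group were checked as duplicates by chi-squared divided by its degrees of freedom, 2.47 to 13.9 per pair, so none was counted as a repeat. INHBA, INHBB, FST and, with DMSO, INHBE rest on the fewest counts of the 10 genes.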

Additional observations from a re-analysis of the deposited data

Results flagged for a closer look

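Dixon's test was applied to the 4 values of each gene in each group, 40 sets in all, of which chance flags about 1 in 20, and 2 were flagged. ACVR1B was at 23.4 CPM in simvastatin replicate 3, apart from the next value of 19.9 CPM in that group. ACVR2B was at 13.2 CPM in DMSO replicate 3, apart from the next value of 11.0 CPM. Without DMSO replicate 3 the fall of ACVR2B with irinotecan kept its call (edgeR adjusted p = 0.019).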

How the results depend on the processing

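Of 1282 values of single genes under 24 alternatives, 1236 kept their call with its direction or stayed without one. Of the rest, 42 lost their call, 4 gained one and 0 changed call with the opposite sign. A change of sign was not looked for where a gene was called in neither analysis. The number of genes besides INHBE that simvastatin changed was 1 in place of 2 under DESeq2 (where INHBA had no adjusted p), with no filter, with the 12 numbered libraries alone, with only the compared groups (where INHBA was not tested) and at an adjusted p under 0.01. With 1 library left out it was 1 to 2. For irinotecan it was 3 in place of 6 at an adjusted p under 0.01 and 3 to 6 with 1 library left out. There INHBB also lost its call with library totals, with no filter and with only the compared groups. For the combination against simvastatin it was 4 to 6 in place of 5 with 1 library left out. It was 4 at an adjusted p under 0.01, where FSTL3 was lost, and 6 with library totals, where ACVR2A was gained. The counts of the other comparisons did not move.

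Over all genes, those called with simvastatin numbered 999, but 558 at an adjusted p under 0.01 and 664 without simvastatin replicate 4. Without simvastatin replicate 3 they numbered 1224. The 12 numbered libraries gave 513 without a replicate block and 1141 with it. At an adjusted p under 0.01, 2587 in place of 4015 were called with irinotecan, 3032 in place of 4677 with the combination, 529 in place of 989 against irinotecan and 2681 in place of 4259 against simvastatin. Counts at an adjusted p under 0.01 come from the same fit with a stricter threshold, so they cannot be higher. Why counts differed with fewer libraries or with a block was not tested.

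Whether the replicate numbers pair the libraries was not settled, and the main fit used no block. Of 18 same-numbered pairs, 4 had deviations correlated over 0.1, with a range of -0.06 to 0.20. Yet 9 of 12 libraries correlated best with their own number. With a replicate block on the 12 numbered libraries, simvastatin changed 1 of the 9 genes and irinotecan 5, against 1 and 4 without the block. In those 12 libraries 2016 genes were called with the block and 707 without it for the combination against irinotecan, and 190 with it and 1 without it for the interaction, where all 16 libraries gave 989 and 2. The interaction called 14 genes with no filter and 5 with DESeq2. It called 0 at an adjusted p under 0.01 and 0 without any 1 combination library. INHBA had 4 to 32 counts per library, and whether depth limits its calls was not tested.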
